A study of Mus musculus with 6 samples.

Results

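The neurotrophins and their receptors were followed in cochlear RNA-seq data as 6 genes, the ligands *Bdnf* and *Ntf3* and the receptors *Ntrk2*, *Ntrk3*, *Ngfr* and *Sort1*, out of the 51802 gene symbols listed in the data. Each gene was taken by its symbol, and its values were summed over all transcripts listed under that symbol, 40 of 128603 transcripts in all. Cochleae came from mice on the C57BL/6J background (spelled C57/BL6J in the labels) at 2 months of age. They were either wildtype (replicates 3, 4 and 5) or heterozygous for a knock-in deletion in *Pou4f3*, a transcription factor gene of hair cells (*Pou4f3(Δ/+)*, replicates 1, 2 and 3, the mutant samples below), with no other treatment. The mutant allele was made in embryonic stem cells and is present in every cell of the animal, and the labels do not say how many animals or cochleae entered a sample, so the p-values measure only the spread between these samples. Below, where 3 values follow each other for a genotype, they are in the order of these replicate numbers. RNA of the whole cochlea was sequenced as paired-end reads, and a lower level in such bulk RNA cannot tell fewer cells of a type from less RNA per cell.

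Neurotrophins are secreted growth factors that keep neurons alive and shape their connections. Brain-derived neurotrophic factor (BDNF, from *Bdnf*) acts mainly through the receptor tyrosine kinase TrkB (*Ntrk2*), and neurotrophin-3 (NT-3, from *Ntf3*) mainly through TrkC (*Ntrk3*). The p75 receptor (*Ngfr*) binds all neurotrophins and their precursors, and sortilin (*Sort1*) is a sorting receptor that carries pro-BDNF inside the cell and joins p75 as a receptor for pro-neurotrophins. In the inner ear, BDNF and NT-3 are made by hair cells and supporting cells and act on the neurons of the spiral and vestibular ganglia, whose survival during development depends on them.

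Summed counts ranged from 14295069 to 17696784 per sample. Every pair of samples differed by more than sampling noise, with a chi-square over genes of 7.35 to 26.2 per degree of freedom. *Pou4f3(Δ/+)* replicate 3 stood apart from its group, nearer to wildtype replicates 3, 4 and 5 (10.6, 7.35 and 14.6) than to *Pou4f3(Δ/+)* replicates 1 and 2 (17.1 and 21.6), and without it edgeR called 196 genes. *Pou4f3* itself had 68 to 88 counts in wildtype and 52 to 97 counts in *Pou4f3(Δ/+)* samples. Its counts come from both alleles and so do not test the labels. The 8 hair cell markers, the 10 spiral ganglion neuron markers and the 9 Schwann cell markers looked up to check the tissue were all detected, and B cell and red blood cell markers were found beside them. Of 17136 genes tested with edgeR's quasi-likelihood test, 0 (0%) had an adjusted p under 0.05, while 1309 (7.64%) had an unadjusted p under 0.05. On the same counts DESeq2 called 64 of the 14122 genes to which it gave an adjusted p (0.453%).

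The 2 Trk receptor genes each give a full-length receptor, which ends with the tyrosine kinase domain, and a truncated receptor, which shares the outer part and lacks the kinase. *Ntrk2* (ENSMUSG00000055254) lies on the plus strand at chr13:58806569-59133970 of GRCm38, and *Ntrk3* (ENSMUSG00000059146) on the minus strand at chr7:78175959-78738012. The sequences below, from the GENCODE M21 transcripts, show where the 2 forms part. The last 30 bases of coding sequence they share are in lower case, and the coding bases of the one form alone are in capitals, up to 60 bases for the full-length forms and through the stop codon for the truncated forms.
Ntrk2-201 (full-length TrkB): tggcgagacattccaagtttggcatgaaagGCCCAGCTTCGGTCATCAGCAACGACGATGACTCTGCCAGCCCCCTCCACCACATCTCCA
Ntrk2-202 (truncated TrkB): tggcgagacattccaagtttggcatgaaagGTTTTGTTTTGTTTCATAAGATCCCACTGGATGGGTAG
Ntrk3-201 (full-length TrkC): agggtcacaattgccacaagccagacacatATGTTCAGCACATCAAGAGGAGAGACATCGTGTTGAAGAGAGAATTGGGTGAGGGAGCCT
Ntrk3-202 (truncated TrkC): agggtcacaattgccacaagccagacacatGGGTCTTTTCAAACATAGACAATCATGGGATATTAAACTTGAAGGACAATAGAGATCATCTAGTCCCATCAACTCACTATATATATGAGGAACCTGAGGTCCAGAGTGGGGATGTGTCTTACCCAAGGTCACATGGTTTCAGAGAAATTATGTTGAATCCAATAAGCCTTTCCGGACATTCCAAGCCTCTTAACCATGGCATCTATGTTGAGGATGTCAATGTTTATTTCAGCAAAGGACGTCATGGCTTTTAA

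Ntrk2-201 and Ntrk2-202 share 1393 coding bases. Ntrk2-201 then runs on into exon 13 of 18 (first 60 bases at chr13:58985802-58985861) and encodes 821 amino acids. Ntrk2-202 ends in its own exon 12 (chr13:58932023-58932060), where 12 codons and a stop close a receptor of 476 amino acids, the form known as TrkB.T1. For *Ntrk3*, 1585 coding bases are shared. Ntrk3-201 goes on in exon 13 of 17 (first 60 bases at chr7:78260355-78260414) to 825 amino acids, while Ntrk3-202 uses exons 13 and 14 of its own, between chr7:78304426 and chr7:78302629, whose 254 bases encode the last 84 of its 612 amino acids.

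The main splice difference in *Sort1* (ENSMUSG00000068747, plus strand, chr3:108284082-108361511) is an extra coding exon. Sort1-203 (858 amino acids) holds exon 18, of 99 bases at chr3:108355472-108355570, which Sort1-201 (825 amino acids) skips. The exon is in capitals, with 30 coding bases on each side in lower case.
Sort1-203 (sortilin with the extra exon): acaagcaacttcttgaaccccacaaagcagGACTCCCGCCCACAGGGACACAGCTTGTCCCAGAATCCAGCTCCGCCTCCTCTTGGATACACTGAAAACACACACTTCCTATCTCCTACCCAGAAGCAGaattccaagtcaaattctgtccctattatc
The exon adds 33 amino acids without moving the reading frame.

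The receptors were plainly expressed and the ligands rested on 1 to 48 counts per sample. By FPKM (fragments per kilobase, adjusted for the size of the library, which allows levels to be compared between genes), the order was *Sort1*, *Ntrk2*, *Ntrk3*, *Ngfr*, *Bdnf* and *Ntf3* in both genotypes. In wildtype cochleae the mean level was 39.3 ± 0.643 FPKM for *Sort1*, 11.8 ± 1.08 for *Ntrk2*, 8.05 ± 1.446 for *Ntrk3*, 6.36 ± 0.376 for *Ngfr*, 0.470 ± 0.0964 for *Bdnf* and 0.120 ± 0.0917 for *Ntf3* (SD, n = 3). Of the neighbours in this order, *Ntrk3* and *Ngfr* overlapped in range in each genotype, and the other neighbours did not. Wildtype *Ngfr* was 13.5 times as high as *Bdnf*, the widest step in the order.

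**Figure D1:**
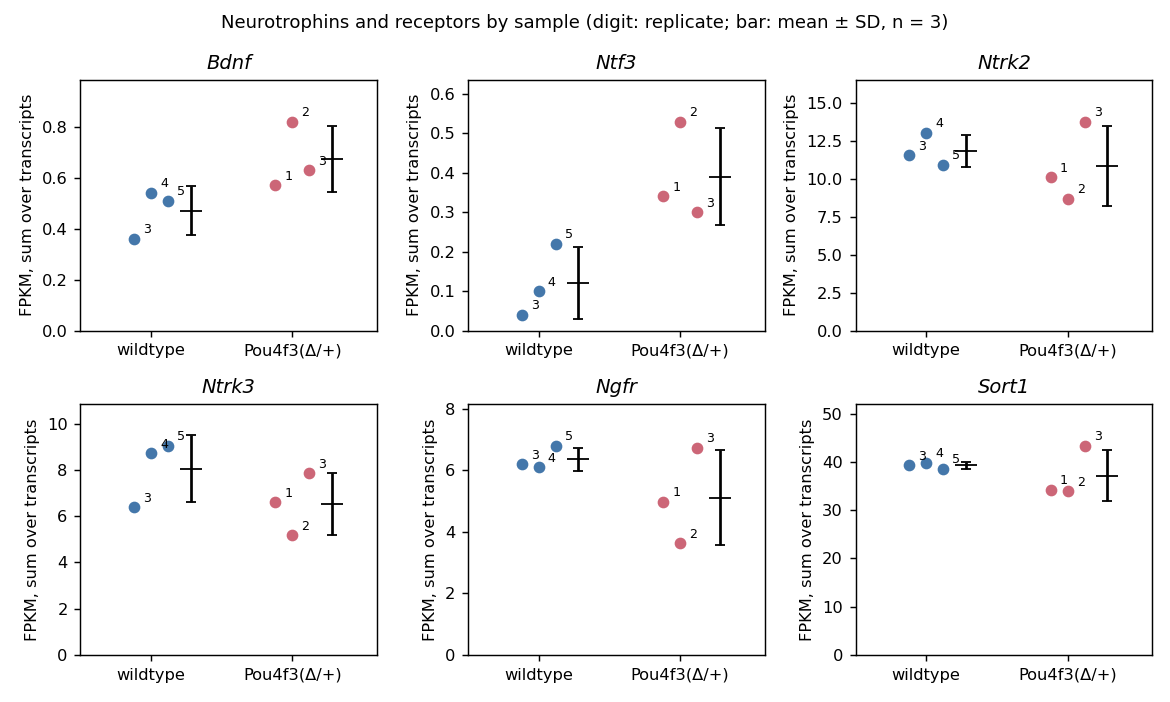
FPKM (y axis, linear from 0), summed over the transcripts of each gene, for each of 3 wildtype (blue) and 3 *Pou4f3(Δ/+)* (red) samples, with the replicate number beside each point and the mean ± SD in black. The 3 *Pou4f3(Δ/+)* values of *Bdnf* and of *Ntf3* lie above the 3 wildtype values, and the groups overlap for the 4 receptors.

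*Bdnf* and *Ntf3* have both been studied as targets of *Pou4f3*, which makes their level in the mutant the first question for this family. Both ligands were higher in every *Pou4f3(Δ/+)* sample than in any wildtype sample, on few counts, and neither passed the adjusted threshold. *Bdnf* (ENSMUSG00000048482, plus strand, chr2:109674700-109727007) had 25, 31 and 35 counts, or 0.36, 0.54 and 0.51 FPKM, in the wildtype samples. In the mutant samples it had 40, 48 and 37 counts, or 0.57, 0.82 and 0.63 FPKM. The highest value was that of *Pou4f3(Δ/+)* replicate 2 and the lowest that of wildtype replicate 3. The log2 fold change was 0.48 with a standard error of 0.28 (95% interval -0.16 to 1.12, adjusted p = 0.679 by edgeR's quasi-likelihood test). An exact two-sided permutation test of the FPKM gave p = 0.1, the smallest that 3 against 3 samples allow. Over all genes tested, 6.12% were apart in the same direction in CPM (counts scaled to library size).

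*Ntf3* (ENSMUSG00000049107, minus strand, chr6:126101412-126166910) had 1, 2 and 5 counts in the wildtype samples, or 0.04, 0.10 and 0.22 FPKM. It had 8, 11 and 6 counts in the mutant samples, or 0.34, 0.53 and 0.30 FPKM. The groups did not overlap, but the closest samples, wildtype replicate 5 and *Pou4f3(Δ/+)* replicate 3, were 1 count apart. Over the group the counts came to 8 in wildtype and 25 in *Pou4f3(Δ/+)*, a ratio per summed count of 3.18 with a 95% interval of 1.39 to 8.16 from counting error alone, against 1.40 (1.06 to 1.85) for *Bdnf*. A floor of 3 counts equalled 0.126 to 0.156 FPKM for *Ntf3*, so 2 of the 3 wildtype samples lay under it, and 0.0427 to 0.0528 FPKM for *Bdnf*, which was above it in all 6 samples. These intervals and floors cover counting error only and leave out the spread between samples.

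*Ntf3* was the single member of the 6 that did not pass the low-count filter of the gene-level test. In the same edgeR test without the filter, over 27491 genes, its log2 fold change was 1.64 with a standard error of 0.76 (95% interval 0.04 to 3.23, unadjusted p = 0.0455, adjusted p = 0.700). In that test 3.36% of genes were higher with an unadjusted p under 0.05, 4.94% were apart and higher in CPM, and 9 genes (0.0327%) passed the adjusted threshold. The exact permutation test of the FPKM again gave p = 0.1. On log2 FPKM with pseudocounts of 0.1 to 1, the *Ntf3* difference was as small as 0.31, since a pseudocount shrinks the change of a gene at this level.

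Most ligand counts fell on 1 transcript per gene. All *Ntf3* counts but a trace were on Ntf3-203, the form of 271 amino acids with a spliced length of 1343 bases. *Bdnf* has 11 listed transcripts, which differ at their start and share the coding sequence of the 249 amino acid precursor at their end. Bdnf-205 held the counts of 4 samples wholly or nearly so, with 25.0 in wildtype replicate 3, 28.3 in wildtype replicate 4, 40.0 in *Pou4f3(Δ/+)* replicate 1 and 36.9 in *Pou4f3(Δ/+)* replicate 3. It held 17.0 counts in wildtype replicate 5 and 0 in *Pou4f3(Δ/+)* replicate 2, where 38.8 counts were on Bdnf-211 and 9.17 on Bdnf-210. Bdnf-205 alone had a log2 fold change of 0.11 with a standard error of 1.17, while the gene-level sum does not depend on how reads are divided among transcripts. The other 10 *Bdnf* transcripts were under the filter, 4 of them at 0 in all samples.

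*Ntrk2*, the BDNF receptor, overlapped between the genotypes. It measured 11.5, 13.0 and 10.9 FPKM in the wildtype samples and 10.1, 8.67 and 13.8 FPKM in the mutant samples. The *Pou4f3(Δ/+)* samples held both the highest and the lowest value. Its log2 fold change came to -0.13 with a standard error of 0.15 (95% interval -0.47 to 0.21, adjusted p = 0.830 by edgeR's quasi-likelihood test).

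The truncated TrkB transcript was the more abundant per length in every sample. Ntrk2-201, the kinase form, measured 4.57 ± 0.585 FPKM in wildtype samples and 4.20 ± 1.09 in *Pou4f3(Δ/+)* (SD, n = 3), and Ntrk2-202 measured 7.26 ± 0.643 and 6.65 ± 1.56. The full-length share of *Ntrk2* FPKM was 41.2%, 38.6% and 35.8% in the wildtype samples and 40.5%, 36.6% and 38.8% in the mutant samples. The means were 38.6% ± 2.72 and 38.6% ± 1.95, a difference of 0.0465 percentage points (exact permutation p = 1.0). Ntrk2-201 and Ntrk2-202 each had a log2 fold change of -0.13 (standard errors 0.20 and 0.17), as the gene did. Of 38347 transcripts tested, 0 (0%) had an adjusted p under 0.05 by edgeR, 1586 (4.14%) had an unadjusted p under 0.05, and DESeq2 called 130.

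*Ntrk3*, the NT-3 receptor, measured 6.39, 8.72 and 9.04 FPKM in the wildtype samples and 6.61, 5.17 and 7.85 FPKM in the mutant samples. The lowest value was in *Pou4f3(Δ/+)* replicate 2 and the highest in wildtype replicate 5, and the groups overlapped. In counts, which the test used, the log2 fold change was -0.15 with a standard error of 0.15 (95% interval -0.48 to 0.18, adjusted p = 0.802 by edgeR's quasi-likelihood test). It was -0.01 without wildtype replicate 4 and -0.27 without *Pou4f3(Δ/+)* replicate 3.

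The FPKM sum of *Ntrk3* leaned on short transcripts with few counts. Apart from Ntrk3-201 and Ntrk3-202, 18 transcripts were listed, none of which passed the filter and 6 of which were at 0 in all samples. Together they held 0.136% to 4.53% of the gene's counts but 0.774% to 32.1% of its FPKM, the highest in wildtype replicate 5, where 46.7 counts came to 2.90 FPKM. Among them Ntrk3-203, a non-coding transcript of 866 bases, had 20.7 counts and 1.39 FPKM in that sample. Without the 18, the wildtype samples stood at 5.98, 7.55 and 6.14 FPKM and the mutant samples at 5.80, 5.13 and 6.59. Wildtype replicate 5 was then below wildtype replicate 4 and *Pou4f3(Δ/+)* replicate 3.

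TrkC also had more of its truncated form per length. Ntrk3-201 measured 2.37 ± 0.459 FPKM in wildtype samples and 2.19 ± 0.475 in *Pou4f3(Δ/+)*, and Ntrk3-202 measured 4.19 ± 0.410 and 3.65 ± 0.259 (SD, n = 3). By counts the order was the opposite, with 72.6% ± 2.26 and 74.0% ± 2.55 of *Ntrk3* counts on full-length transcripts, as Ntrk3-201 is 19703 bases long and Ntrk3-202 is 3977. As a share of all *Ntrk3* FPKM, full-length transcripts held 31.47% ± 3.63 in wildtype and 34.65% ± 1.447 in *Pou4f3(Δ/+)*, 3.18 percentage points apart (exact permutation p = 0.2). This difference was 1.11 points without wildtype replicate 5 and 4.48 points without wildtype replicate 4. Among protein-coding transcripts only, the difference was 0.665 points (37.4% ± 1.91 and 38.1% ± 4.31, exact permutation p = 0.8). Among Ntrk3-201 and Ntrk3-202 only, a denominator chosen after seeing the data, the difference was 1.24 points (35.97% ± 2.19 and 37.21% ± 3.57, exact permutation p = 0.7). The log2 fold changes were -0.12 for Ntrk3-201 and -0.20 for Ntrk3-202, with standard errors of 0.19 and 0.14.

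**Figure D2:**
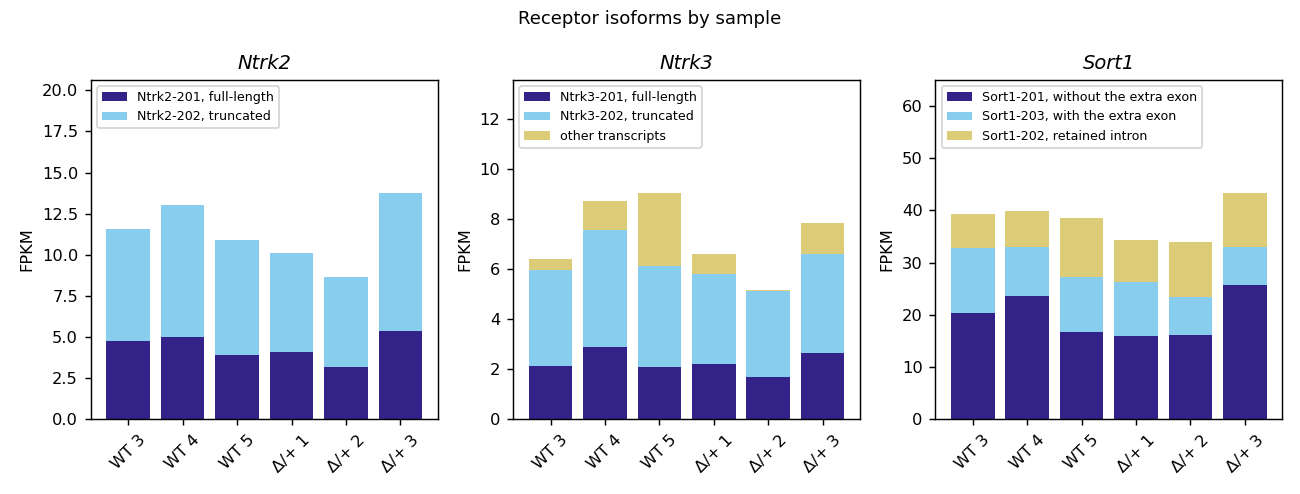
FPKM (y axis, linear from 0) of the transcripts of *Ntrk2*, *Ntrk3* and *Sort1*, stacked for each sample (x axis, wildtype as WT and *Pou4f3(Δ/+)* as Δ/+, with the replicate number). The truncated forms take more FPKM than the full-length forms of both Trk genes in all 6 samples, and the other *Ntrk3* transcripts are widest in wildtype replicate 5, at 2.90 FPKM.

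*Ngfr* (ENSMUSG00000000120, minus strand, chr11:95568818-95587735), listed with 1 transcript, had the largest estimated fold change among the receptors, and it did not pass the threshold. It measured 6.20, 6.09 and 6.79 FPKM (369, 300 and 402 counts) in the wildtype samples. In the mutant samples it measured 4.97, 3.63 and 6.73 FPKM (303, 194 and 340 counts). Replicates 1 and 2 lay below all wildtype samples and replicate 3 lay within the wildtype range. The log2 fold change was -0.32 with a standard error of 0.19 (95% interval -0.76 to 0.11, adjusted p = 0.682 by edgeR's quasi-likelihood test, exact permutation p = 0.3). It was -0.14 without *Pou4f3(Δ/+)* replicate 2 (adjusted p = 0.974 by edgeR) and -0.55 without replicate 3 (adjusted p = 0.130 by edgeR).

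*Sort1* was the most abundant member. It measured 39.35, 39.89 and 38.61 FPKM in the wildtype samples, the narrowest relative spread of the 6 genes, and 34.27, 33.97 and 43.35 FPKM in the mutant samples. The mutant samples lay on both sides of the wildtype range. The gene's log2 fold change was -0.10 with a standard error of 0.10 (95% interval -0.33 to 0.13, adjusted p = 0.807 by edgeR's quasi-likelihood test).

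Of the *Sort1* transcripts, Sort1-201 measured 20.2 ± 3.46 FPKM in wildtype samples and 19.3 ± 5.59 in *Pou4f3(Δ/+)*, and Sort1-203, with the extra exon shown above, measured 10.8 ± 1.62 and 8.23 ± 1.69 (SD, n = 3). Sort1-203 had the smallest p of any member transcript, a log2 fold change of -0.39 with a standard error of 0.17 (unadjusted p = 0.0599, adjusted p = 0.999 by edgeR's quasi-likelihood test). It measured 12.5, 9.35 and 10.5 FPKM in the wildtype samples with 10.2, 7.21 and 7.30 in the mutant samples, and the overlap was through *Pou4f3(Δ/+)* replicate 1. As a share of Sort1-201 and Sort1-203 together it held 35.0% ± 5.76 and 30.6% ± 8.39, a measure added after the values were seen and not tested. Sort1-202, a non-coding transcript with a retained intron that covers the extra exon, measured 8.26 ± 2.73 and 9.63 ± 1.37 FPKM (log2 fold change 0.21, standard error 0.25), with a log2 fold change of 0.064 without wildtype replicate 3 and 0.53 without wildtype replicate 5. Reads in the overlap had to be divided among these transcripts.

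**Figure D3:**
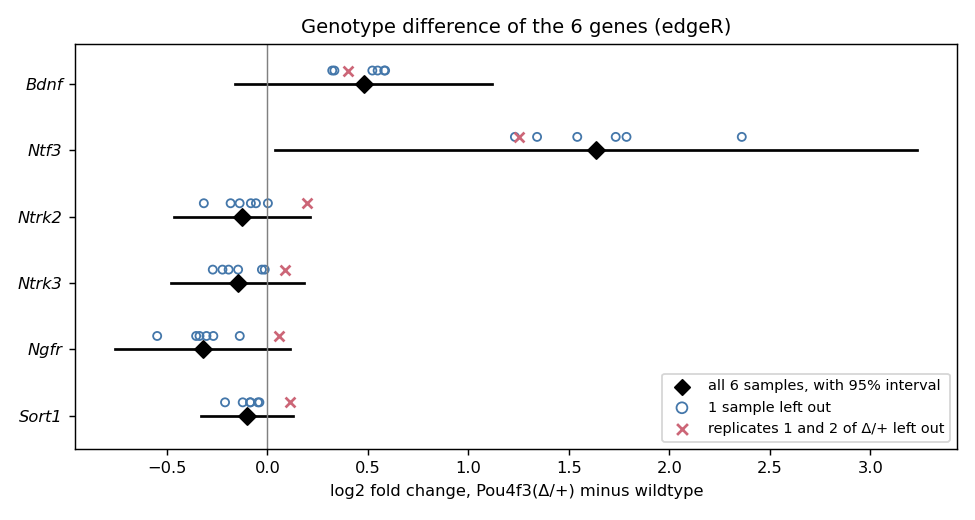
The log2 fold change (x axis, *Pou4f3(Δ/+)* minus wildtype, edgeR) of each gene with all 6 samples (diamond, with its 95% interval), with each sample left out in turn (circles) and without *Pou4f3(Δ/+)* replicates 1 and 2 (cross). *Bdnf* and *Ntf3* are above 0 in every fit drawn, and the 4 receptors are below 0 with all samples and above 0 without the 2 replicates.

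The 4 receptors had their lowest value in the same sample. On log2 CPM centred on the wildtype mean, *Pou4f3(Δ/+)* replicate 2 was the lowest of all 6 samples for each receptor (-0.43 for *Ntrk2*, -0.41 for *Ntrk3*, -0.78 for *Ngfr* and -0.23 for *Sort1*). *Pou4f3(Δ/+)* replicate 3 was above the wildtype mean for each (0.20, 0.09, 0.06 and 0.11). Without replicates 1 and 2, the log2 fold changes were 0.20 for *Ntrk2*, 0.09 for *Ntrk3*, 0.06 for *Ngfr* and 0.11 for *Sort1*, the opposite sign to the values from all samples, with a single mutant sample left. Without replicate 3, the log2 fold changes were -0.32 for *Ntrk2*, -0.27 for *Ntrk3*, -0.55 for *Ngfr*, -0.21 for *Sort1*, 0.52 for *Bdnf* and 1.79 for *Ntf3*, and 0 of the 6 passed the adjusted threshold by edgeR (adjusted p from 0.130 to 0.434). *Bdnf* went the other way, with 0.72 in replicate 2, its highest value.

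Several marker lists were also lowest in *Pou4f3(Δ/+)* replicate 2, among them but not only those of cells known to carry these receptors. On log2 CPM minus the wildtype mean, replicate 2 stood at -0.33 for neurons, -0.25 for Schwann cells, -0.37 for the central nervous system, -0.42 for fibrocytes, -0.55 for pericytes and smooth muscle and -0.67 for the stria vascularis, and was the lowest sample for each. The 10 spiral ganglion neuron markers had a mean log2 CPM of 6.80, 6.81 and 6.90 in the wildtype samples and 6.61, 6.50 and 6.95 in the mutant samples, with 9 of 10 lower and a summed level of 2600 to 2856 CPM against 2127 to 2855 CPM. The 9 Schwann cell and satellite glia markers had 6.48, 6.66 and 6.55 against 6.40, 6.31 and 6.66, with 7 of 9 lower and 1995 to 2295 CPM against 1738 to 2295 CPM. The 6 central nervous system markers were *Gfap*, *Aqp4*, *Mog*, *Olig2*, *Gabra6* and *Slc17a7*, which were not checked for expression by cells of the cochlea itself. Of these, 5 passed the filter and 4 were lower, and the 6 summed to 207 to 257 CPM against 184 to 250 CPM. None of these markers was at 0 in all samples, and 0 of their genes passed the adjusted threshold. Their part in the receptor values was not tested.

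Of the 13 marker lists looked up, 3 did not overlap between the groups in mean log2 CPM, those of B cells, stria vascularis and bone. Of all single genes tested, 12.6% did not overlap in CPM in either direction. By edgeR, 8 of the 9 B cell markers were higher with an unadjusted p under 0.05. At that p, 3 of the 5 stria markers and 2 of the 5 bone markers were lower, beside 7.64% of all genes in either direction. The 9 B cell markers were all higher in *Pou4f3(Δ/+)*, with a mean log2 CPM of 4.64, 4.81 and 4.48 in wildtype and 5.61, 5.73 and 4.92 in the mutant samples, and a summed level of 379 to 419 CPM against 425 to 741 CPM. The 5 markers of the stria vascularis, the epithelium that makes endolymph, were all lower, with a summed level of 895 to 933 CPM against 607 to 809 CPM. The 5 osteoblast and osteocyte markers were 4 lower and 1 higher, at 1515 to 2261 CPM against 1221 to 1612 CPM. The 8 hair cell markers overlapped, 4 higher and 4 lower, at 3.44 to 3.55 and 3.49 to 3.61 in mean log2 CPM. None of the B cell, stria, bone and hair cell markers was at 0 in all samples, 0 passed the adjusted threshold, and their part in the ligand and receptor values was not tested.

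**Figure D4:**
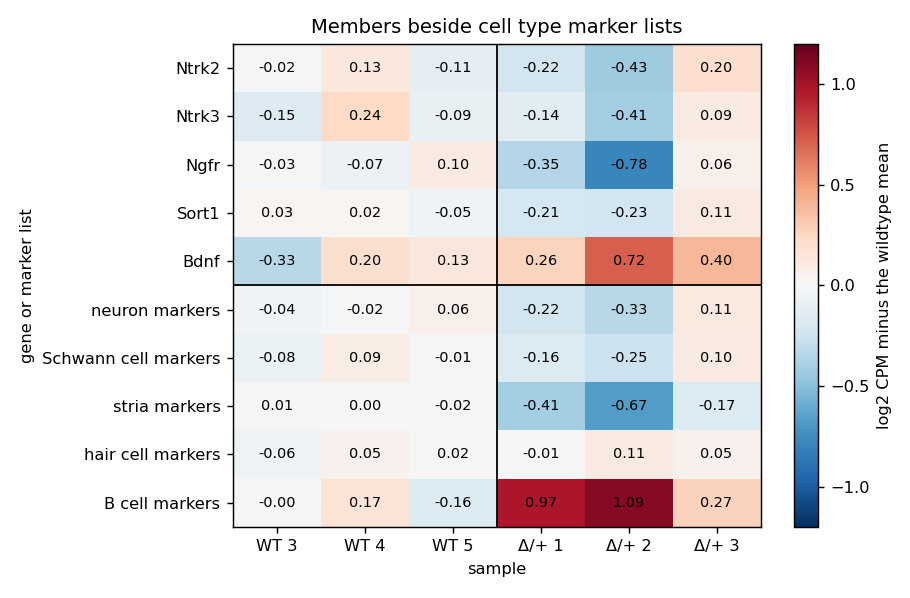
Log2 CPM minus the wildtype mean (colour and printed value) of 5 genes and, below the line, the mean of 5 marker lists, by sample (columns, wildtype as WT and *Pou4f3(Δ/+)* as Δ/+). *Pou4f3(Δ/+)* replicate 2 has the lowest value of each receptor and of the neuron and Schwann cell markers and the highest value of *Bdnf* and of the B cell markers.

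Beyond the 6 genes, 81 other genes of the neurotrophin pathway were looked up in 8 groups by role, and 74 passed the low-count filter. Their signs were balanced, with 37 higher and 37 lower and a median log2 fold change of -0.00072 against -0.0027 over all genes tested. By edgeR's quasi-likelihood test 0 of 74 passed the adjusted threshold, as did 0 of all 17136, and 8 (1 higher and 7 lower) had an unadjusted p under 0.05, beside 3.50% of all genes higher and 4.14% lower. The genes given here were taken from the 2 with the smallest p in each group, whose adjusted p ranged from 0.643 to 0.776. Being taken by p, these genes are more prone than others to have groups that do not overlap.

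Neurotrophin-4 (*Ntf5*), which like BDNF acts through TrkB, had 7, 8 and 14 counts in the wildtype samples and 9, 4 and 4 in the mutant samples. The groups overlapped, and the gene was under the low-count filter.

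Among the enzymes that cut pro-neurotrophins, the convertase gene *Pcsk6* measured 17.02, 17.95 and 17.81 FPKM in the wildtype samples and 12.9, 9.85 and 16.1 FPKM in the mutant samples, apart between the groups as were 6.52% of all genes tested, lower in CPM. Its log2 fold change was -0.52 with a standard error of 0.14 (unadjusted p = 0.00480, adjusted p = 0.643 by edgeR). It was the single pathway gene that passed the threshold in any of the fits run (DESeq2 gave some genes of low count no adjusted p), with a log2 fold change of -0.67 and an adjusted p of 0.0317 without *Pou4f3(Δ/+)* replicate 3, where 196 of all genes passed. *Mmp3*, a secreted metalloproteinase, rested on 1 sample, with 46.9 FPKM in wildtype replicate 5 and 0.08 to 7.02 FPKM in the other 5. The other 6 tested enzymes were 5 higher and 1 lower.

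Of the 4 other sortilin family genes, 3 were lower. *Sorcs3* measured 4.34 ± 0.266 FPKM in wildtype samples and 3.25 ± 0.590 in *Pou4f3(Δ/+)*. Its log2 fold change was -0.42 with a standard error of 0.14. It was lower without overlap in CPM, as were 6.52% of all genes tested. *Sorcs1* measured 1.73 ± 0.366 and 1.29 ± 0.838 FPKM with overlap, as *Pou4f3(Δ/+)* replicate 3 was its highest sample, and its log2 fold change of -0.53 became -0.28 without *Pou4f3(Δ/+)* replicate 2 and -1.08 without replicate 3. Both encode sorting receptors related to sortilin.

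On the p75 side of the pathway, 4 of 9 tested partners, adaptors and sheddases were higher and 5 lower. *Bex3*, which encodes a small protein that binds the p75 death domain, measured 47.4 ± 2.21 FPKM and 40.2 ± 2.07 (log2 fold change -0.23, standard error 0.085). Its groups were apart, as were 6.52% of all genes tested, lower in CPM. *Maged1*, whose product NRAGE also binds p75, measured 99.5 ± 8.15 and 84.4 ± 11.4 FPKM (log2 fold change -0.24, standard error 0.11), with overlap, and -0.15 without *Pou4f3(Δ/+)* replicate 2.

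Inside the cell, the Trk adaptors were 7 higher and 8 lower and the genes of the MAP kinase and PI3 kinase branches 9 higher and 8 lower. *Kidins220*, a scaffold of Trk receptors, measured 57.5 ± 2.33 and 49.6 ± 8.39 FPKM (log2 fold change -0.22, standard error 0.12), and the log2 fold change was -0.085 without *Pou4f3(Δ/+)* replicate 2. *Plcg1*, the phospholipase that docks on active Trk receptors, measured 18.4 ± 0.723 and 20.2 ± 3.09 FPKM (log2 fold change 0.10, standard error 0.082), and its log2 fold change was 0.035 without *Pou4f3(Δ/+)* replicate 3. *Mapk3*, which encodes the kinase ERK1, was lower in all *Pou4f3(Δ/+)* samples, at 111, 106 and 115 FPKM in wildtype and 87.4, 90.6 and 97.7 FPKM in *Pou4f3(Δ/+)* (log2 fold change -0.27, standard error 0.074, unadjusted p = 0.00531, adjusted p = 0.643 by edgeR). Both *Kidins220* and *Mapk3* were lower without overlap in CPM, as were 6.52% of all genes tested.

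The list of genes induced by neurotrophin signalling, in which *Creb1* was counted among the higher genes, was 4 higher and 6 lower. *Vgf*, a neuropeptide precursor gene induced by BDNF, had 29, 13 and 82 counts in the wildtype samples and 8, 2 and 20 in the mutant samples, with overlap (log2 fold change -1.96, standard error 0.78, adjusted p = 0.643 by edgeR). Its log2 fold change was -1.03 without wildtype replicate 5 and -3.01 without *Pou4f3(Δ/+)* replicate 3. *Creb1*, which encodes a transcription factor that Trk signalling activates, measured 17.0 ± 0.534 and 19.0 ± 1.75 FPKM (log2 fold change 0.19, standard error 0.088).

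**Figure D5:**
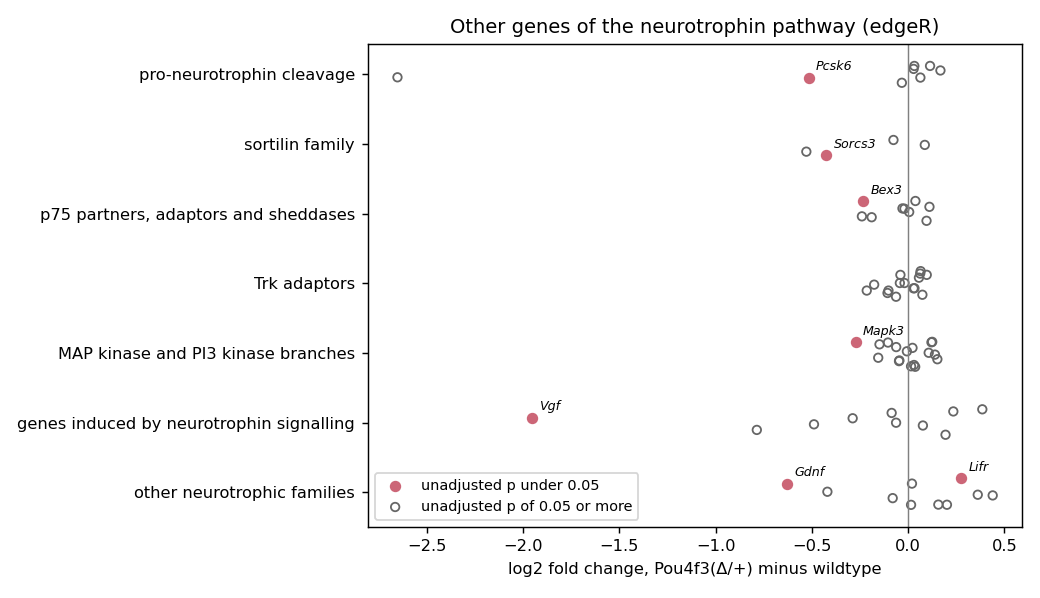
The log2 fold change (x axis, *Pou4f3(Δ/+)* minus wildtype, edgeR) of 73 of the 74 tested genes of the neurotrophin pathway beyond the 6 members, in 7 groups by role (y axis, jittered within a role). Filled points have an unadjusted p under 0.05, 1 above 0 and 6 below it, and 0 of the 73 passed the adjusted threshold.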

How the data were processed

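Bulk cochlear RNA was sequenced by the authors from 3 wildtype and 3 *Pou4f3(Δ/+)* samples at 2 months. For each transcript the authors deposited an expected count and an FPKM value scaled to transcript length and library size. The expected count is an estimate that need not be whole. Of the members' values above 0, 80.4% lay more than 0.001 counts from a whole number. Submitters' notes name mm8 and DESeq2. The aligner and counting program are not given in the sources used here, nor is the strand setting, so reads cannot be parted from antisense genes that overlap *Bdnf* and *Sort1* (mean counts 0.58 and 1.08). Of the listed transcripts, 99.5% were found in GENCODE M21 on GRCm38, which gave coordinates, coding ends and sequences.

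Values were summed per symbol. The expected counts, as whole numbers, entered edgeR 4.0.16 in R 4.3.3 (filterByExpr with minimum count 10 and minimum total 15, TMM, quasi-likelihood test, Benjamini-Hochberg over all features, threshold 0.05), per gene and per transcript, after a check on simulated data. Log2 CPM used a prior count of 2. Exact permutation tests and intervals used SciPy 1.17.1 in Python 3.11.15. A transcript was called full-length where it shared the stop codon of the gene's longest coding sequence. Alternatives were DESeq2 1.42.0, its size factors in edgeR, limma 3.58.1 on log2 FPKM with pseudocounts of 0.1, 0.5 and 1, no filter, and samples left out. The members, the pathway list and the marker lists were chosen with earlier results of these data known. Genes and transcripts given with values were the members, their transcripts past the filter, the 2 pathway genes per role with the smallest p and any past the threshold, and the 2 genes closest in profile to each member. Some items that this rule selects are not reported here. *Ntf5* and the transcripts under the filter that carry values were named after their values were seen.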

Additional observations from a re-analysis of the deposited data

How the results depend on the processing

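Member genes past the adjusted threshold numbered 0 in 13 alternatives, though DESeq2 gave *Bdnf* and *Ntf3* (and *Mmp3*, *Vgf* and *Gdnf*) no adjusted p, so that it could have called 4 of the 6 members only. Member transcripts past it numbered 0 in all 11. The count over all genes, 0 by edgeR, was 64 with DESeq2, 1 with limma on log2(FPKM + 0.1), 9 without the filter, 3 without *Pou4f3(Δ/+)* replicates 1 and 2, and 0 to 196 with each sample left out (196 without *Pou4f3(Δ/+)* replicate 3, 3 without wildtype replicate 4). Over transcripts it was 130 with DESeq2, 1 without the filter and 0 to 2 with a sample left out. In the pathway list it was 0 to 1 with a sample left out, the 1 being *Pcsk6* without *Pou4f3(Δ/+)* replicate 3. The cause of these changes was not tested.

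*Bdnf* and *Ntf3* stayed above 0 in every alternative (0.19 to 0.59 and 0.31 to 2.36 on the log2 scale). With each sample left out, *Ntrk2* ranged from -0.32 to 0.002, *Ntrk3* from -0.27 to -0.01, *Ngfr* from -0.55 to -0.14 and *Sort1* from -0.21 to -0.04. Without *Pou4f3(Δ/+)* replicates 1 and 2, where the single mutant sample is assumed to vary like wildtype, the signs turned for *Ntrk2* (0.20), *Ntrk3* (0.0852), *Ngfr* (0.0575), *Sort1* (0.11), *Sorcs1* (0.19), Ntrk2-201 (0.21), Ntrk2-202 (0.19), Ntrk3-201 (0.15), Ngfr-201 (0.0588) and Sort1-201 (0.33). The sign also turned for *Mmp3* without wildtype replicate 5 (leave-one-out range -5.62 to 2.52) and within the leave-one-out ranges of Bdnf-205 (-0.37 to 0.69), Ntrk2-201 (-0.33 to 0.0284), Ntrk3-201 (-0.27 to 0.0439) and Sort1-201 (-0.32 to 0.0507), and for Bdnf-205 with limma on log2(FPKM + 0.5) (-0.0311). Of 77 alternative values of the member genes 72 kept their direction and, where there was an adjusted p, their side of the threshold, as did 192 of 195 for the pathway genes the rule selects and 84 of 99 for the transcripts. The difference in full-length share ranged from -1.33 to 1.39 percentage points for *Ntrk2* and from 1.11 to 4.48 for *Ntrk3* with a sample left out, and was 0.665 for *Ntrk3* among protein-coding transcripts.

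No paired analysis was possible because the 2 groups share a single replicate number. Ligand counts limit precision, since 3 counts span 0.126 to 0.156 FPKM for *Ntf3*.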

Other observations

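Genes of other neurotrophic families were described beside the neurotrophins. Of 11 looked up, 10 were tested, with 7 higher and 3 lower in *Pou4f3(Δ/+)* and 0 past the adjusted threshold by edgeR's quasi-likelihood test. *Lifr*, the receptor subunit for leukaemia inhibitory factor and ciliary neurotrophic factor, measured 30.3, 30.8 and 27.9 FPKM in wildtype replicates 3, 4 and 5 and 38.0, 38.5 and 31.6 FPKM in *Pou4f3(Δ/+)* replicates 1, 2 and 3 (log2 fold change 0.27, standard error 0.10, unadjusted p = 0.0231, adjusted p = 0.643 by edgeR). *Gdnf*, the ligand of the GFRα and RET receptors, had 43, 35 and 50 counts in wildtype and 31, 21 and 29 counts in *Pou4f3(Δ/+)* (log2 fold change -0.63, standard error 0.27, adjusted p = 0.643 by edgeR). *Gdnf* was lower without overlap between the groups in CPM, as were 6.52% of all genes tested, and *Lifr* overlapped.

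The genes whose log2 CPM over the 6 samples lay closest to a member, by the root mean square difference of the centred profiles over 17135 genes, are given as a description of 6 points with no test. For *Ntrk2* they were *Syt7*, a synaptotagmin gene (0.0281), and *Dnajc6*, which encodes the clathrin uncoating factor auxilin (0.0306). For *Ntrk3* they were *Tmem74* (0.0378) and *BC049715* (0.0389), and for *Ngfr* they were *A930033H14Rik* (0.0548) and *Fads2*, a fatty acid desaturase gene (0.0558). For *Sort1* they were *Cds1* (0.0225) and *Ddhd2* (0.0228), both genes of lipid metabolism. For *Bdnf* they were *Wnt3*, a secreted ligand gene (0.0775), and *Rps3a2* (0.0807), whose near-identical copies make its counts uncertain. All members and neighbours share the same libraries, and the differences compare with a spread of 0.136 (*Sort1*) to 0.344 (*Bdnf*) in log2 CPM over the samples.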
